A study of Mus musculus with 4 samples.

Results

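Store-operated calcium entry is the route by which a cell refills its endoplasmic reticulum with calcium, and 7 genes of this pathway were followed in mouse primary spermatocytes with and without TDRD6: the calcium sensors Stim1 and Stim2, the channel subunits Orai1, Orai2 and Orai3, and the regulators Saraf and Efhb. They were chosen by name, as genes of the pathway, and make up 7 of the 37718 gene rows counted in every sample. Earlier results of these data were known at that choice. Stim1 and Efhb are among the genes that the study had picked from its own splicing analysis of these same libraries. TDRD6 is a Tudor domain protein of the male germ line, and the series asked whether splicing is disturbed in meiotic cells that lack it. The cells were hCD4+ cells of testes at 20 days post partum, taken from Tdrd6+/- mice in 2 samples and from Tdrd6-/- mice in 2 samples, and each sample was pooled from at least 4 mice. Both genotypes carry human CD4 under the promoter of the Tdrd6 locus, which allows cells that use this promoter to be pulled out on magnetic beads. Every sample has at least 1 mutant Tdrd6 allele, no wild type was sequenced, and the comparison is between 1 working copy of Tdrd6 and none.

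When the calcium store of the endoplasmic reticulum empties, the STIM proteins in its membrane lose calcium from their luminal EF hands, cluster, and move to places where the reticulum touches the plasma membrane. There they bind and open ORAI channels, and calcium flows in from outside the cell. SARAF is a reticulum membrane protein that promotes the slow inactivation of this current, and EFHB is an EF-hand protein that binds STIM1. STIM1 and ORAI1 are best known from lymphocytes, in which their loss causes immunodeficiency. In the testis, calcium handling has mostly been described for sperm, whose main calcium channel is CatSper and not ORAI.

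Stim1 and Efhb are the members of which the study names single introns, and their structures are needed to read the counts. The study also measured these introns by RT-qPCR, on RNA samples other than those sequenced, and that measurement is not examined here. Stim1 (ENSMUSG00000030987) lies on the plus strand of chr7:102267806-102437319 of mm10 (GENCODE M21), and its 12 exon segments, 11 junctions and 11 introns in the counts match an annotated coding transcript in number. That number fits 2 annotated intron chains, and the transcript with the lowest identifier was taken. Efhb (ENSMUSG00000023931) lies on the minus strand of chr17:53398889-53463321, and its 13 exon segments, 12 junctions and 12 introns match its only annotated coding transcript in number. The deposited numbers run along the chromosome, so for Efhb they run against the transcript. Of the other members, Stim2 lies at chr5:53998499-54121057, Orai1 at chr5:123015074-123030456, Orai3 at chr7:127769815-127775150 and Saraf at chr8:34154575-34170821, all on the plus strand, and Orai2 at chr5:136147459-136170713 on the minus strand. Introns and exons are numbered here from the transcript start, and the deposited number is added for Efhb. Deposited intron 1 of Efhb is thus intron 12, the last of the gene, and deposited intron 12 is the first. Which of these ends the study counts its first Efhb intron from is not given in the sources used here, so the values of both are given. The sequences below show the places at which 4 introns described in the results are removed or kept. They were read from GENCODE transcripts, 5′ to 3′ on the strand of the gene, with the first 15 bases of the downstream exon in capitals.
Stim1 exons 7 and 8, joined when intron 7 (chr7:102421531-102425972, plus strand, 4442 bp) is removed: gaagagctggagcagGTTCGGGAGGCCTTG
Efhb exons 5 and 6, joined when intron 5 (deposited number 8, chr17:53437214-53445744, minus strand, 8531 bp) is removed: atgattattttgcagGAGAAGCAAAGAATC
Efhb exons 2 and 3, joined when intron 2 (deposited number 11, chr17:53451695-53452560, minus strand) is removed: gagaagcttcccaggCTAATGACTCCCCCA
Efhb exons 12 and 13, joined when intron 12 (deposited number 1, chr17:53399120-53400745, minus strand, 1626 bp) is removed: aggtcaaaggaagagATTTCAGATATATTA

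The other annotated transcript of Efhb is of the nonsense-mediated decay class and keeps parts of 2 of these introns. Its last exon runs past the end of exon 12 and covers 98.3% of intron 12, so a count on this intron can come either from unspliced coding transcripts or from this mature one. It also starts exon 6 at an earlier acceptor, 31 bases inside intron 5. It joins exon 1 to exon 5 and so lacks exons 2 to 4. The first sequence shows exon 12 of Efhb followed in capitals by the start of intron 12, and the other shows in capitals the last 20 bases of intron 5 followed by the start of exon 6.
Efhb decay transcript, end of exon 12 into intron 12: aggtcaaaggaagagGTACAGAGATCACCT
Efhb decay transcript, end of intron 5 into exon 6: CATGCTCCTACCACCCACAGgagaagcaaa
The kept intron 12 opens with GT and intron 5 closes with AG, the usual bases at the ends of mouse introns. No annotated exon lies inside Stim1 intron 7.

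The 4 libraries held 43778449 to 47221554 tallied fragments, of which 21.9 to 30.95% fell on introns, with the lowest share in Tdrd6-/- replicate 2. The Tdrd6 count was 33220 and 39322 in Tdrd6+/- cells against 359 and 400 in Tdrd6-/- cells, as the labels state. Markers of late spermatocytes summed to 9881 to 11340 CPM (gene counts scaled by TMM to a common library size). This sum includes Tdrd6 itself, at 1253 and 1402 CPM in Tdrd6+/- cells against 11.4 and 12.6 in Tdrd6-/- cells. Of the 12 markers tested, 2 were higher (Spag6 and Sycp1) and 2 lower (Tdrd6 and Piwil1) in Tdrd6-/- cells (edgeR quasi-likelihood test, false discovery rate 0.1). Markers of spermatogonia and early meiosis summed to 23.3 to 32.8 CPM, those of Sertoli cells to 56.4 to 71.8, those of Leydig cells to 26.0 to 33.9, and those of peritubular, endothelial and macrophage cells to 7.74 to 11.3. Spermatid markers summed to 13.4 and 17.8 CPM in Tdrd6+/- cells against 28.9 and 26.8 in Tdrd6-/- cells. Of the 4 tested ones 2 were higher in Tdrd6-/- cells (edgeR quasi-likelihood test, false discovery rate 0.1). No marker of the other cell types was called, and over all genes tested 4.80% were. No marker of these lists was at 0 in all 4 samples. What part these differences have in the results below was not tested, and in bulk RNA fewer cells of a type and less RNA per cell cannot be told apart.

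All 7 genes were detected in every sample, at levels that spanned more than an order of magnitude. Levels between genes were compared as CPM per kb of annotated exon, over all 4 samples. Saraf stood highest, at 42.9 ± 6.003 (SD, n = 4), followed by Stim1 at 26.3 ± 1.17 and Efhb at 16.3 ± 1.05. The 3 channel subunits were lower, with Orai1 at 6.43 ± 1.45, Orai2 at 4.38 ± 0.411 and Orai3 at 3.05 ± 0.166. Stim2, the sensor of smaller drops in store calcium, stood last at 1.43 ± 0.111. Of the 15644 tested genes with a length, 91.9% lay below Saraf, 86.5% below Stim1, 80.0% below Efhb and 37.8% below Stim2. Each gene exceeded the next in this order in 4 of 4 samples, but the ranges of Orai1 and Orai2 overlapped, from 4.45 to 7.86 and from 3.93 to 4.89 CPM per kb. The length used matters for the top of the order. With the longest coding transcript as the length, Stim1 rose to 62.5 ± 2.78 and Saraf to 67.5 ± 9.45 CPM per kb, and their ranges overlapped. The order of the 7 genes stayed as it was. By either length Stim1 was the more abundant sensor, and each Orai gene lay below Saraf, Stim1 and Efhb in every sample.

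**Figure D1:**
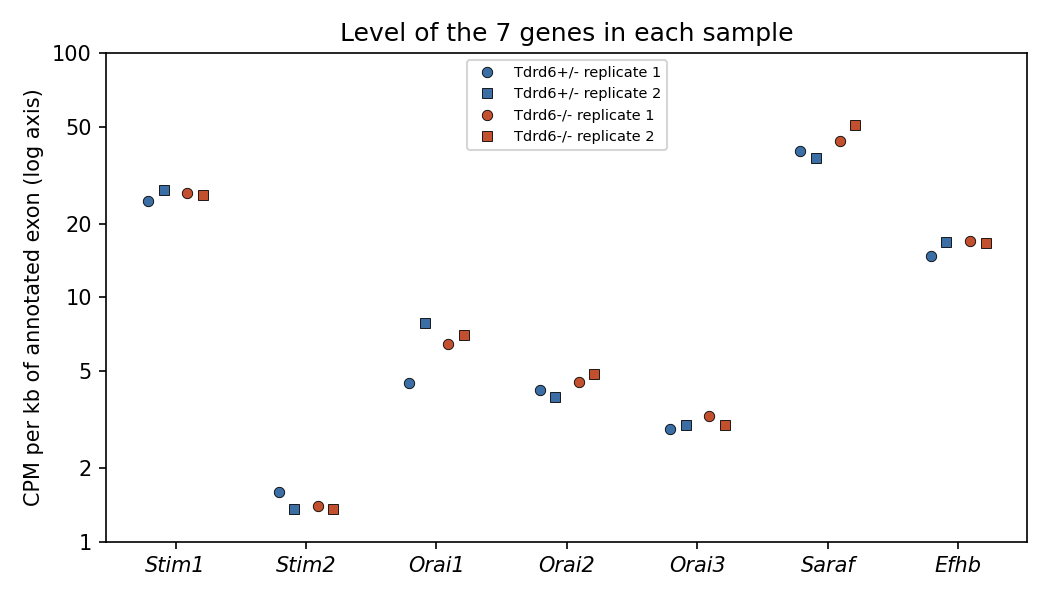
Each point is 1 sample, plotted as CPM per kb of annotated exon on a log axis for the 7 genes. Blue marks Tdrd6+/- and red Tdrd6-/-, circles replicate 1 and squares replicate 2. Saraf, Stim1 and Efhb lie above the 3 Orai genes, and Stim2 lies lowest, between 1.36 and 1.60.

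None of the 7 genes passed the test for a different gene count between the genotypes (edgeR quasi-likelihood test, false discovery rate 0.1), and none had an unadjusted p under 0.05. DESeq2's Wald test also called 0 of 7. Over all 16555 genes tested, 4.80% were called.

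Among the sensors, the Stim1 gene count was 6794 and 7999 in Tdrd6+/- cells against 8699 and 8631 in Tdrd6-/- cells, which after scaling gave 256 and 285 against 277 and 273 CPM. The 2 Tdrd6-/- values lay between the 2 Tdrd6+/- values. The log2 fold change was -0.0049 with a standard error of 0.13 (adjusted p = 0.993, edgeR). Stim2 had 217 and 196 counts against 226 and 222, or 8.19 and 6.99 against 7.19 and 7.01 CPM. Its groups overlapped as well, with a log2 fold change of -0.12 ± 0.22 (SE; adjusted p = 0.883, edgeR).

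Among the channel subunits, the widest spread between replicates was that of Orai1, the subunit of the classical calcium release-activated channel. Its count was 271 and 506 in Tdrd6+/- cells against 464 and 508 in Tdrd6-/- cells, or 10.2 and 18.0 against 14.8 and 16.04 CPM. The low value of Tdrd6+/- replicate 1 stood apart from the other 3. The log2 fold change was 0.10 ± 0.22 (SE; adjusted p = 0.908, edgeR), and without that sample it was -0.24. Orai2 gave 25.5 and 23.9 CPM against 27.3 and 29.7, so both Tdrd6-/- samples were above both Tdrd6+/- samples, by a log2 fold change of 0.18 ± 0.16 (SE; adjusted p = 0.706, edgeR). Groups without overlap, found in 2 of the 7 members, were common, at 44.0% of all tested genes. Orai3, the subunit that mammals alone have, gave 6.19 and 6.45 CPM against 7.03 and 6.44, with overlapping groups and a log2 fold change of 0.07 ± 0.23 (SE; adjusted p = 0.942, edgeR).

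Of the regulators, Saraf came nearest to a difference. Its count was 3093 and 3050 in Tdrd6+/- cells against 4005 and 4727 in Tdrd6-/- cells, or 117 and 109 against 127 and 149 CPM. Both Tdrd6-/- samples were above both Tdrd6+/- samples. The log2 fold change of 0.27 ± 0.13 (SE) had an unadjusted p of 0.0569 and an adjusted p of 0.377 in edgeR's quasi-likelihood test. Efhb had 1679 and 2036 counts against 2286 and 2263, or 63.3 and 72.6 against 72.7 and 71.5 CPM, with overlapping groups and a log2 fold change of 0.06 ± 0.14 (SE; adjusted p = 0.909, edgeR).

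Counts on introns can come from unspliced or partly spliced RNA, or from transcripts with an exon there, and were next summed over each gene. The genes differed widely in how many intron counts they had for each gene count. In Tdrd6+/- cells the ratio was 5.68 ± 0.646 (SD, n = 2) for Stim2, 1.55 ± 0.333 for Efhb and 1.03 ± 0.255 for Stim1, but 0.141 ± 0.0163 for Saraf and 0.166 ± 0.00192 for Orai2. Stim2, the gene with the lowest level per kb of exon, thus had several counts on introns for each count on the gene row. These ratios were not scaled by the length of introns or exons, which differs between the genes.

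Summed intron counts passed the test in 0 of 7 genes and had an unadjusted p under 0.05 in 0 of 7, in edgeR's quasi-likelihood test. Over the 15025 genes tested, 1.42% were called. In 3 of the 7 genes the groups did not overlap, as in 43.1% of all genes tested, with Efhb lower and Saraf and Orai3 higher in Tdrd6-/- cells. Efhb gave 238 and 221 intron CPM (intron counts scaled in the same way) in Tdrd6+/- cells and 188 and 192 in Tdrd6-/- cells, so both Tdrd6-/- samples were lower, with a log2 fold change of -0.27 and an adjusted p of 0.61 (edgeR). Saraf gave 37.4 and 32.6 against 41.6 and 43.0, both Tdrd6-/- samples higher, with a log2 fold change of 0.28 and an adjusted p of 0.62 (edgeR). Orai3, with few intron counts, gave 6.43 and 7.60 against 10.7 and 8.71, a log2 fold change of 0.48 ± 0.30 (SE; adjusted p = 0.504, edgeR). Stim1 gave 655 and 565 against 586 and 469, and Stim2 106 and 84.6 against 101 and 77.4, and in both sensors the groups overlapped. They overlapped as well for Orai1 and Orai2, at log2 fold changes of 0.046 and -0.068.

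The ratio of intron to gene counts asks whether a gene's intron counts, relative to its gene count, differed between genotypes. In edgeR's quasi-likelihood test of the interaction it passed in 0 of 7 genes, against 2.95% of the 13030 genes tested, and DESeq2 also called 0. Efhb was the only member with an unadjusted p under 0.05. Its ratio was 1.79 and 1.31 in Tdrd6+/- cells against 1.12 and 0.866 in Tdrd6-/- cells, and the groups did not overlap. After allowing for the lower intron share of whole libraries the log2 difference was -0.33 (unadjusted p = 0.041, adjusted p = 0.34, edgeR). The ratio of Orai2 did not overlap either, at 0.164 and 0.167 against 0.115 and 0.109, with a log2 difference of -0.26 ± 0.21 (SE; adjusted p = 0.626, edgeR). Of all genes tested, 42.8% had ratios without overlap. For Stim1 the ratio was 1.21 and 0.854 against 0.919 and 0.555, with overlapping groups and a log2 difference of -0.21. In each of the 7 genes the lowest of the 4 ratios was that of Tdrd6-/- replicate 2, the library with the lowest intron share of all.

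**Figure D2:**
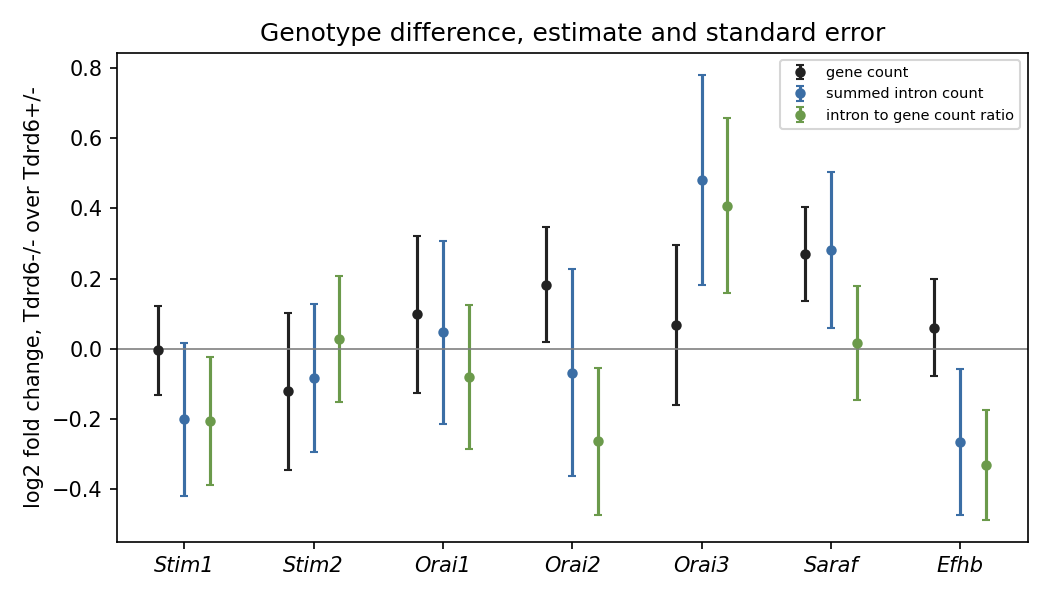
Points are log2 fold changes of Tdrd6-/- over Tdrd6+/- and bars are standard errors, for the gene count, the summed intron count and the ratio of intron to gene counts of each of the 7 genes. No point passed the false discovery rate of 0.1. Saraf lies above 0 for the gene count, Orai3 above 0 and Efhb below 0 for both intron measures.

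Intron usage was then tested intron by intron. Usage is the count of an intron relative to all other introns of its gene, so it asks whether the distribution of counts within the gene shifted, whatever the gene's total did. The 7 genes have 46 introns, of which 22 had enough counts to be tested after the filter on mean count. Of these 22, 1 was called (likelihood ratio test in DESeq2, false discovery rate 0.1), while over all 28903 introns tested 1.94% were called. The called intron was intron 5 of Efhb, which was lower in Tdrd6-/- cells. The study had picked Efhb and Stim1 from its own analysis of these libraries. The shares of called member introns are therefore not an independent comparison with those over all introns. The shares of 10 of the 22 did not overlap between genotypes, close to the 46.4% of all tested introns. These calls rest on 1 round of dispersion estimation. With 10 rounds, an alternative added after seeing the data, 29 member introns were tested and 4 were called, against 3.80% of the 48872 introns tested in that way. They were Efhb intron 5 (adjusted p = 3.53e-06), intron 10 (0.0498) and intron 1 (0.0427) and Saraf intron 1 (0.0885), all by the DESeq2 likelihood ratio test. In counts simulated at a dispersion of 0.02, with 200 introns changed by a log2 change of 1, the 10 rounds found 73.5% of these. Of their calls 69.8% lay in unchanged genes, while 1 round found 48.5% with 6.2% of calls in unchanged genes. These shares depend on the simulated settings and are not error rates of the calls above.

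In Stim1, most intron counts lay in the first intron. This intron is 85947 bp long and held 58.2 to 63.4% of all Stim1 intron counts in the 4 samples. Per kb, the count was lowest in intron 3, at a mean of 17.9 counts per kb over the samples, and highest in the short intron 9, at 215. Intron 10 followed with 176 per kb, and annotated transcripts place exons inside it, among them 1 that covers 26.1% of its length. Intron 7 had 57.2 counts per kb, about as many as intron 1 with 50.5.

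The study had picked Stim1 intron 7 from its own analysis of these libraries and then measured it by RT-qPCR on other RNA samples. In the counts used here this intron held 261 and 214 counts in Tdrd6+/- cells against 312 and 229 in Tdrd6-/- cells. As a share of the Stim1 intron counts this was 3.16% (Wilson 95% interval 2.81 to 3.56) and 3.13% (2.75 to 3.57) against 3.90% (3.50 to 4.35) and 4.78% (4.21 to 5.42). Both Tdrd6-/- samples were higher, and the interval of Tdrd6-/- replicate 1 overlapped those of the Tdrd6+/- samples. The log2 change in usage was 0.47 ± 0.20 (SE), with an unadjusted p of 0.0182 and an adjusted p of 0.311 (DESeq2 likelihood ratio test), or 0.105 with 10 rounds of dispersion estimation. Per 100 Stim1 gene counts, intron 7 had 3.84 and 2.68 counts in Tdrd6+/- cells and 3.59 and 2.65 in Tdrd6-/- cells, with overlapping groups. The log2 change against the gene count was -0.055 (adjusted p = 0.934, DESeq2). The median on this scale was -0.35 over the 13224 introns tested, those above a mean count of 179.3. The share of an intron also depends on the counts of the other introns, and the sum of all Stim1 intron counts per gene count was lowest in Tdrd6-/- replicate 2, the sample with the highest share on intron 7. The short intron 8 had the larger log2 change, 0.82 ± 0.43 (SE), on 25 to 42 counts, below the filter. Intron 11 had the smallest p of the introns that were lower, at -0.28 ± 0.24 (SE; adjusted p = 0.782, DESeq2).

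None of the 28 Stim1 exon segments and junctions was called, of which 23 were tested, and none had an unadjusted p under 0.05 (DESeq2 likelihood ratio test). Over all 7 genes, 0 of 66 tested exon segments and junctions were called, 3 had an unadjusted p under 0.05, and edgeR's usage test called 0. Over all 147704 tested, 0.221% were called. The Stim1 junctions from exon 1 through exon 10 each held 258 to 589 counts per sample. The junctions of exon 10 with 11 and of exon 11 with 12 held 80 to 154 counts, and exon 11 itself 239 to 335. The junctions at the 3′ end of this chain thus held fewer counts in every sample. This is the stretch where the annotation places the alternative exons of the other coding transcripts of Stim1. Whether those exons have a part in the lower counts was not tested.

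Stim1 features whose shares did not overlap between genotypes numbered 12 of the 23 tested, where 35.9% of all tested features did not overlap. The 4 that were higher in Tdrd6-/- cells were exons 11 and 12 and the junctions of exons 10 with 11 and 11 with 12, all at the 3′ end. The 8 that were lower were exons 2 and 4 to 8 and the junctions of exons 3 with 4 and 7 with 8, in the body of the transcript. Exon 12, which holds the 3′ end, had 36.5 and 36.7% of the gene counts in Tdrd6+/- cells and 38.7 and 39.2% in Tdrd6-/- cells. Its log2 change was 0.14 ± 0.093 (SE; unadjusted p = 0.119, DESeq2). The junction that removes intron 7 had 5.03 and 5.04% against 4.87 and 4.65%, and a log2 change of -0.086 ± 0.13 (SE; unadjusted p = 0.523, DESeq2). The smallest p of the junctions that were higher was that of exons 11 and 12, with 88 and 80 counts against 127 and 116 and a log2 change of 0.30 ± 0.23 (SE; unadjusted p = 0.197, DESeq2). Of the features that were lower, exon 6 had a log2 change of -0.13 ± 0.11 (SE; unadjusted p = 0.228, DESeq2) and the junction of exons 6 and 7 one of -0.13 ± 0.13 (SE; unadjusted p = 0.317, DESeq2). Of the 5 unannotated junctions of Stim1, each with 10 to 44 counts per sample, all were below the filter, and their smallest p was 0.252 (N025, log2 change -0.59 ± 0.51, SE, DESeq2) among those that were lower and 0.623 (N027, 0.18 ± 0.37) among those that were higher.

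**Figure D3:**
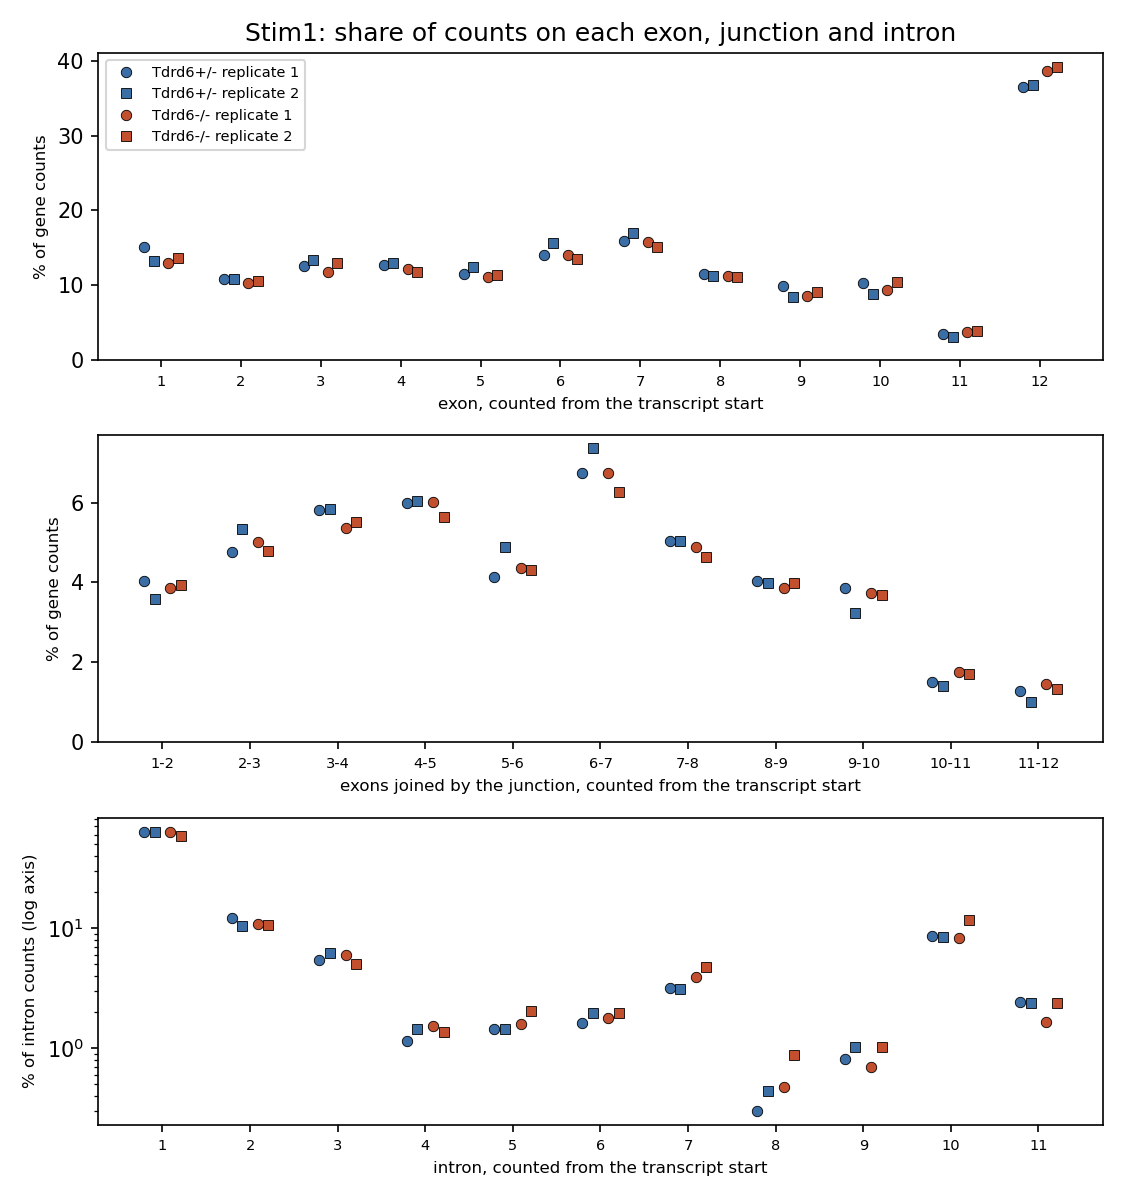
Share of Stim1 counts on each exon segment (top), each annotated junction (middle) and each intron (bottom, log axis), in percent, for the 4 samples. Blue is Tdrd6+/-, red Tdrd6-/-, circles replicate 1 and squares replicate 2. Exon 12 is higher in both Tdrd6-/- samples, the junctions at exon 11 are far below those before them, and intron 7 is higher in both Tdrd6-/- samples, at 3.90 and 4.78%.

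In Efhb, intron counts per kb were highest in the introns at both ends of the gene, and intron 4 (deposited number 9) followed with 75.1. Intron 1 (deposited number 12) is 9807 bp long and held 44.6 to 49.2% of the Efhb intron counts, at a mean of 122 counts per kb. Intron 12, the one that the decay transcript keeps, was the densest with 133 per kb, and intron 10 (deposited number 3) the least dense with 9.67. Of the 12 introns 8 were tested, 2 had an unadjusted p under 0.05, and both of these were lower in Tdrd6-/- cells.

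Intron 5 of Efhb, the called one, held 162 and 165 counts in Tdrd6+/- cells against 76 and 50 in Tdrd6-/- cells. This was 5.40% of the Efhb intron counts (Wilson 95% interval 4.65 to 6.27) and 6.16% (5.31 to 7.14) against 2.96% (2.37 to 3.68) and 2.55% (1.94 to 3.35). The groups did not overlap, nor did the intervals between them. The log2 change in usage was -1.11 ± 0.26 (SE), with an adjusted p of 0.00524 (DESeq2 likelihood ratio test). Per 100 Efhb gene counts, intron 5 had 9.65 and 8.10 counts in Tdrd6+/- cells and 3.33 and 2.21 in Tdrd6-/- cells, a log2 change of -1.69 ± 0.35 (SE). In that fit the intron fell below a higher filter, a mean count of 179.3, and had no adjusted p. The median of -0.35 covers only introns above that filter, so it is not a like measure for intron 5. Per 100 gene counts, 9 of the 12 Efhb introns were lower in both Tdrd6-/- samples than in both Tdrd6+/- samples. The median log2 change of the 12, which include introns below that filter, was -0.62. The share of all introns without overlap on this scale was not counted, so the 9 of 12 cannot be set against it. The tested introns of all genes ran low on it, and of the 1354 called in that fit 1337 were lower (DESeq2 likelihood ratio test). Intron 10 went from a mean of 8.17 to 3.47 counts per 100 gene counts, intron 6 from 7.17 to 3.84 and intron 1 from 69.5 to 48.9. The direction of the change in intron 5 held in 11 of 11 alternatives. The call was lost in edgeR's usage test, where the adjusted p was 0.541, and without Tdrd6+/- replicate 1 (adjusted p = 1), Tdrd6+/- replicate 2 (adjusted p = 0.183) or Tdrd6-/- replicate 2 (adjusted p = 0.476) in DESeq2. The junction of exons 5 and 6, which forms when this intron is removed, had 59 and 87 counts against 103 and 94, or 3.51 and 4.27% of the gene count against 4.51 and 4.15%, with overlapping groups and a log2 change of 0.16 ± 0.25 (SE).

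Intron 10 of Efhb was next, with 158 and 141 counts against 101 and 57, or 5.27 and 5.26% of the intron counts against 3.93 and 2.91%. Both Tdrd6-/- samples were lower, and the log2 change was -0.65 ± 0.25 (SE; adjusted p = 0.249, DESeq2). Intron 1 went the other way by a small amount, with 44.6 and 45.1% against 49.2 and 49.1%. The log2 change of 0.25 ± 0.15 (SE) did not pass either (adjusted p = 0.611, DESeq2). Against the gene count the sign of this intron turned, to -0.50 (adjusted p = 0.29, DESeq2).

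Intron 12 of Efhb, deposited as intron 1, held 246 and 180 counts in Tdrd6+/- cells and 197 and 240 in Tdrd6-/- cells. Its share was 8.21% (Wilson 95% interval 7.28 to 9.24) and 6.72% (5.83 to 7.73) against 7.66% (6.70 to 8.75) and 12.3% (10.9 to 13.8). The groups overlapped, since only Tdrd6-/- replicate 2 stood above the other samples. The log2 change was 0.42 ± 0.25 (SE; unadjusted p = 0.0863, adjusted p = 0.575, DESeq2 likelihood ratio test), and with 10 rounds of dispersion estimation the adjusted p was 0.663. It was called without Tdrd6-/- replicate 1, at a log2 change of 0.79 and an adjusted p of 0.0798. Against the gene count the sign turned, to -0.255 (adjusted p = 0.674, DESeq2), which was still above the median of -0.35 over the introns tested in that fit. It had 14.7 and 8.84 counts per 100 gene counts in Tdrd6+/- cells and 8.62 and 10.6 in Tdrd6-/- cells. The junction of exons 12 and 13 had 50 and 70 counts against 56 and 61, a log2 change of -0.33 ± 0.29 (SE; unadjusted p = 0.252, DESeq2), the smallest p of the Efhb junctions that were lower.

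**Figure D4:**
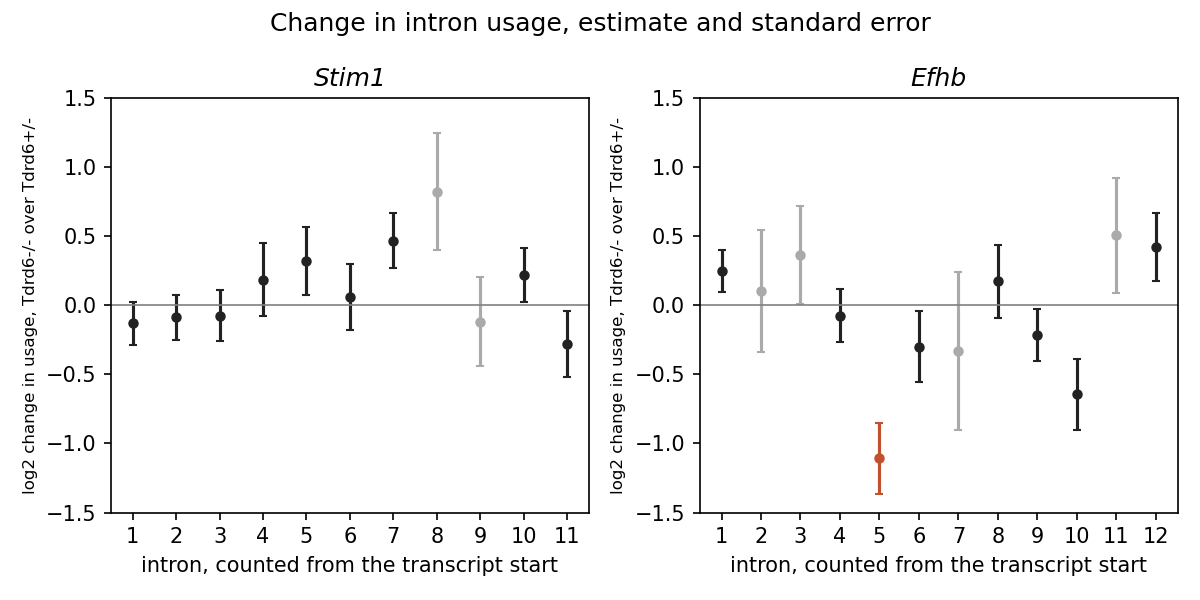
Points are log2 changes in intron usage of Tdrd6-/- over Tdrd6+/- and bars are standard errors, along Stim1 (left) and Efhb (right) from the transcript start. Red marks the called intron, black the other tested ones and grey those below the filter on mean count. Efhb intron 5 lies lowest, at -1.11, and Stim1 intron 7 is at 0.47.

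Of the 25 exons and junctions of Efhb that were tested, 9 did not overlap between genotypes, close to the 35.9% of all tested features, and none was called. The 6 that were higher in Tdrd6-/- cells were exons 1, 2 and 3 and the junctions of exons 1 with 2, 2 with 3 and 3 with 4. The 3 that were lower, exons 7 and 10 and the junction of exons 12 and 13, lay downstream, and exon 10 had the smallest p of the exons that were lower, at a log2 change of -0.17 ± 0.16 (SE; unadjusted p = 0.301, DESeq2). The smallest p was that of exon 3 (deposited E011), with 142 and 158 counts against 271 and 244, or 8.46 and 7.76% of the gene count against 11.9 and 10.8%. Its log2 change was 0.53 ± 0.18 (SE), with an unadjusted p of 0.00309 and an adjusted p of 0.453 (DESeq2 likelihood ratio test).

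The junction of exons 2 and 3, whose sequence is given above, had 48 and 54 counts in Tdrd6+/- cells and 106 and 98 in Tdrd6-/- cells. This was 2.86 and 2.65% of the gene count against 4.64 and 4.33%. Both Tdrd6-/- samples were higher, by a log2 change of 0.73 ± 0.26 (SE; unadjusted p = 0.00546, adjusted p = 0.575, DESeq2). Exon 2 had 99 and 105 counts against 173 and 172, a log2 change of 0.49 ± 0.21 (SE; adjusted p = 0.898, DESeq2), and the junction of exons 1 and 2 had 43 and 44 against 72 and 78. These features neighbour each other and share fragments, so they are not separate measurements. Exons 2 and 3 and their junctions are absent from the decay transcript, and exon 4, also absent from it, had 197 and 273 counts against 313 and 282, 11.7 and 13.4% against 13.7 and 12.5%, with overlapping groups. No count was given for a junction of exon 1 with exon 5. With 10 rounds of dispersion estimation, exon 3 (adjusted p = 0.0128), exon 2 (0.0878) and the junction between them (0.0286) were called, 3 of the 66 member features tested, against 1.29% of all 153968. Since the study had picked Efhb from its own analysis of these libraries, the 2 shares are not an independent comparison. In counts of exons and junctions simulated at a dispersion of 0.02, 200 features were changed by a log2 change of 1. The 10 rounds found 59% of these, with 92% of calls in unchanged genes, and 1 round found 15% with 3.2%. These shares too depend on the simulated settings and are not error rates of the calls above.

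**Figure D5:**
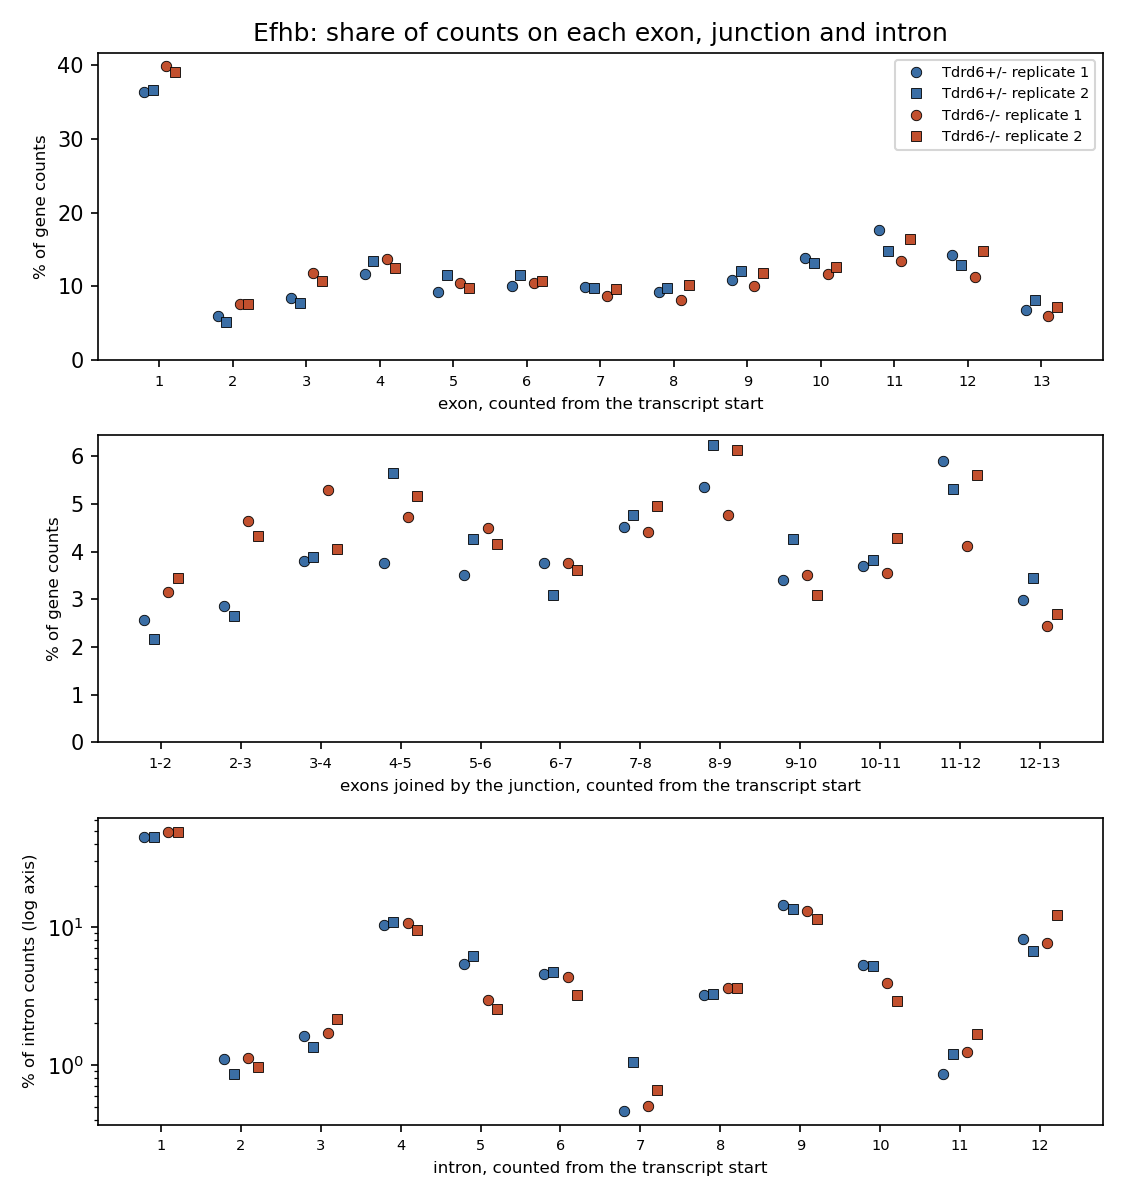
Share of Efhb counts on each exon segment (top), each junction (middle) and each intron (bottom, log axis), in percent, numbered from the transcript start, for the 4 samples. Blue is Tdrd6+/-, red Tdrd6-/-, circles replicate 1 and squares replicate 2. Exons 1 to 3 and the first 3 junctions are higher in both Tdrd6-/- samples, and intron 5 is lower in both, at 2.96 and 2.55% against 5.40 and 6.16%.

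The other 5 genes had few testable introns. Of the 13 introns of Stim2 3 were tested, of the 5 of Saraf 2, and none of the 5 introns of the Orai genes. The intron with the smallest p was intron 1 of Saraf, which held 221 and 171 counts against 215 and 157, or 46.9 and 43.4% of the Saraf intron counts against 37.9 and 35.7%. Both Tdrd6-/- samples were lower, with a log2 change of -0.50 ± 0.23 (SE; unadjusted p = 0.0265, adjusted p = 0.367, DESeq2). Intron 5 of Saraf moved in the other direction, with 22.9 and 21.8% against 26.5 and 31.1% (adjusted p = 0.508, DESeq2). A miRNA gene, Mir6395, lies on the opposite strand within Saraf, and whether the counts were made by strand is not given in the sources used here. Among exons and junctions, the smallest p outside Stim1 and Efhb was that of the second junction of Orai2, which had 16 and 18 counts against 43 and 47. This was 2.37 and 2.69% of the gene count against 5.006 and 5.0%, both Tdrd6-/- samples higher, with a log2 change of 1.02 ± 0.41 (SE) and an unadjusted p of 0.0127 (DESeq2), but its mean count was under the filter and it has no adjusted p. The exon segment E007 of Orai1, which could not be placed on the annotation, had 10 and 23 counts against 9 and 8 and was under the filter as well.

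The wider pathway was described by gene lists, each read against the 4.80% of all tested genes called in edgeR's test and against the median log2 fold change of 0.0123 over all of them. Of 19 accessory proteins, which position or regulate STIM and ORAI, 16 were tested and 1 fell. It was Ahcyl1, which encodes a protein that binds the inositol trisphosphate receptor. It had 100 and 85.9 CPM in Tdrd6+/- cells and 47.4 and 39.7 in Tdrd6-/- cells, which gave a log2 fold change of -1.12 ± 0.15 (SE; adjusted p = 7.69e-05, edgeR). The accessory list had a median log2 fold change of -0.0054.

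Of 31 genes for release and refill of the store (inositol trisphosphate and ryanodine receptors, calcium pumps, luminal calcium-binding proteins and phospholipases C), 30 were tested, 2 fell and 0 rose, with a median of -0.087. Clgn, a chaperone of the reticulum of male germ cells, had 921 and 958 CPM against 617 and 563, a log2 fold change of -0.70 ± 0.13 (SE; adjusted p = 0.00269, edgeR). Atp2b4, a calcium pump of the plasma membrane whose row also takes in an overlapping gene, had 302 and 320 CPM against 217 and 191, a log2 fold change of -0.63 ± 0.13 (SE; adjusted p = 0.00716, edgeR). For both, the Tdrd6-/- samples lay well below the Tdrd6+/- samples.

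Of 15 tested genes for calmodulin, calcineurin and NFAT, which read the calcium signal, 2 fell and 0 rose, with a median of 0.083. Ppp3cb, a catalytic subunit of calcineurin, had 77.5 and 56.2 CPM against 48.4 and 39.0, a log2 fold change of -0.64 ± 0.17 (SE; adjusted p = 0.0339, edgeR). Nfat5, an NFAT-family factor that answers to osmotic stress, had 146 and 129 CPM against 115 and 67.4, a log2 fold change of -0.61 ± 0.18 (SE; adjusted p = 0.0629, edgeR). Here the groups also did not overlap, but the 2 Tdrd6-/- samples differed from each other.

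Of the 11 genes for mitochondrial calcium uptake 0 passed the edgeR test and 2 had an unadjusted p under 0.05, with a median of 0.0545. Beside Efhb intron 5, the pathway lists outside the members had 1 called intron among the 187 tested, against 1.94% of all introns tested. It was intron 14 of Canx in the deposited numbering (calnexin, a calcium-binding chaperone). It held 31.8 ± 2.76% of the Canx intron counts in Tdrd6+/- cells and 23.1 ± 3.90% in Tdrd6-/- cells (SD, n = 2 each), and its log2 change was -0.64 ± 0.19 (SE; adjusted p = 0.0649, DESeq2 likelihood ratio test).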

How the data were processed

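Total RNA of hCD4+ testis cells was depleted of rRNA and sequenced as directional libraries, and 2 samples per genotype were analysed. Alignment by the authors was to mm10 with GSNAP and annotation by Ensembl release 75, and they deposited raw counts per intron and per gene, exon segment and junction. Base calls were converted with bcl2fastq 1.8.4 according to the submitters' processing notes. The counting program and its use of strand are not given in the sources used here. A fragment can count on several features of a gene.

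Positions and lengths came from GENCODE M21 on mm10. The numbering was checked on Efhb, where log length and log count correlated at 0.72 across its 12 introns in chromosome order and at 0.05 in reverse, as a description. Positions were given where the number of features matched an annotated transcript, which they did not for Stim2, Orai1 and Orai3. For Stim1 the number fitted 2 intron chains, and the transcript with the lowest identifier was taken.

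Gene counts, summed intron counts and their ratio were compared by the quasi-likelihood test of edgeR 4.0.16 in R 4.3.3, after filterByExpr and TMM scaling. Intron usage, and exon and junction usage, were fitted across all features as the count of a feature against the rest of its gene, with a likelihood ratio test in DESeq2 1.42.0, a minimum total count of 10 and independent filtering at a mean count of 85.55 for introns and 53.37 for exons and junctions. The model has the form of DEXSeq and JunctionSeq, which the study used and which were not installed, but its dispersions do not: the reported fits ran 1 round of fitted means and dispersions, where DEXSeq by default runs 10. The 10 rounds were run as an alternative chosen after seeing the data, and their calls among the members stand beside the others. Adjusted p-values are Benjamini-Hochberg values over all features tested, at a false discovery rate of 0.1. Wilson 95% intervals cover counting error only. An exact permutation test of 2 samples against 2 cannot go below p = 0.33 and was not used. The samples are pools of animals, and nothing states that the 2 pools of a genotype share no animals.

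Tests were checked on simulated counts with 200 changed features at a log2 change of 1. The simulated dispersion was 0.02 for every feature and was not estimated from the data. The shares of calls in unchanged genes depend on it and on the number of changed features. For intron usage 48.5% of the changed introns were found, with 6.2% of calls in unchanged genes, for exons and junctions 15% and 3.2%, and for gene counts 88% and 2.2%. For summed intron counts these shares were 91.5% and 12%, and for the intron to gene count ratio 45% and 9.1%.

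The members and gene lists were chosen with earlier results of these data known. All 7 members are named. For Stim1 and Efhb intron 7 and both end introns, respectively, every called feature and the features with the smallest p of each kind are given, for the other members the feature with the smallest p, and for each list up to 4 genes with the smallest adjusted p. Exon 2 of Efhb, intron 5 of Saraf and the features that do not overlap were named after their values were seen. Alternatives were other size factors, tools, filters and false discovery rates, the replicate block, the gene count as the reference for introns, other lengths and leaving out each sample. One list of the wider pathway is not reported here.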

Additional observations from a re-analysis of the deposited data

How the results depend on the processing

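The number of members called was 0 for gene counts, summed introns and intron to gene count ratios under every alternative run. For intron usage it was 1 in the reported fit, 0 in edgeR's usage test and against the gene count, 0 to 2 when a sample was left out, and 4 with 10 dispersion iterations, which were added after seeing the data. Exons and junctions gave 0 in the reported fit and when a sample was left out, and 3 with 10 iterations. With the replicate block intron usage again gave 1 call, Efhb intron 5, at a log2 change of -1.11 and an adjusted p of 0.004 (DESeq2), and with the crossed pairing, also added, 1 call. Same-numbered samples deviated together at r = -0.118 over genes and 0.047 over introns, the labels do not pair them, and the block changed no other call. Without length, 1 of the 7 genes kept its place in the order of levels.

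Fold changes near 0 changed sign under some alternatives. For the Stim1 gene count the log2 fold change was 0.00387 with DESeq2, 0.00388 with median-of-ratios size factors and 0.0204 without a filter. For Orai1 intron totals it was -0.197 when scaled by gene rows. Against the gene count the log2 change was -0.055 for Stim1 intron 7, -0.255 for Efhb intron 12, -0.503 for Efhb intron 1 and -0.331 for the second deposited intron of Orai2. With a sample left out, gene counts gave log2 fold changes from -0.0646 to 0.0724 for Stim1, -0.233 to 0.0126 for Stim2, -0.238 to 0.564 for Orai1, -0.00153 to 0.14 for Orai3 and -0.0202 to 0.159 for Efhb. Intron totals gave -0.301 to 0.0958 for Stim2, -0.183 to 0.29 for Orai1 and -0.306 to 0.141 for Orai2. The intron to gene count ratio gave -0.157 to 0.2 for Stim2, -0.272 to 0.096 for Orai1 and -0.0798 to 0.106 for Saraf. The first deposited intron of Orai3 gave -0.386 to 0.599. The cause of these changes was not tested.

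With 2 samples per genotype, 1 library can decide a call. Over all introns the number called was 561 in the reported fit, 1855 with 10 iterations and 2 in edgeR's usage test. Leaving out 1 library raised or lowered this number, depending on the library. The introns of the Orai genes and most of those of Stim2 and Saraf fell below the mean count filter of the reported fit, and edgeR's usage test, which has no such filter, called none of those it tested.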
